A study of Mus musculus with 16 samples.

Results

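Leucine and valine transfer RNAs (tRNA-Leu and tRNA-Val) were followed in the small RNA of plasma extracellular vesicles (pEVs). They were taken by name, as every listed ncRNA whose name gives a mouse tRNA-Leu or tRNA-Val gene, and were grouped by anticodon. This gave 49 gene entries, 28 tRNA-Leu and 21 tRNA-Val, among 433 tRNA entries and 15159 ncRNAs listed. The tRNA-Leu entries were 5 with anticodon AAG, 4 with CAA, 10 with CAG, 6 with TAA and 3 with TAG. The tRNA-Val entries were 7 with anticodon AAC, 11 with CAC and 3 with TAC.

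The study looked for RNA signals of tau-driven neurodegeneration that brain and blood may share. PS19 mice (PS19+/-) are heterozygous for a transgene of human tau with the P301S mutation, driven by the mouse prion promoter, on a mixed B6;C3 background, and were compared with wild-type (WT) littermates without it. Both groups held 8 mice of about 9.6 months, males and females in equal number, with 1 library per mouse from 200 µL of plasma. The vesicles were precipitated with a polymer kit, so the preparation may hold other plasma particles. From read counts alone, fewer vesicles cannot be told apart from less RNA per vesicle, and the study's particle counts were not used here.

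A tRNA carries its amino acid to the ribosome and reads the codon through its anticodon, and tRNAs that carry the same amino acid with different anticodons are called isoacceptors. Each anticodon is encoded by several gene copies of equal or near-equal sequence, so a short read often fits more than one copy. The tRNA-Leu molecules, like tRNA-Ser, are class II tRNAs with a long variable arm, and tRNA-Leu genes with anticodon CAA hold an intron that is spliced out. tRNA-Val molecules are class I tRNAs with a short variable arm. In blood, tRNA reads come largely from cleaved molecules, and fragments of tRNA-Gly and tRNA-Glu are known to be abundant there.

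Positions were looked up in RefSeq (GRCm38.p6), which lists 47 tRNA-Leu and tRNA-Val genes with these anticodons. The copy numbers of the names used here could not be paired one by one with the RefSeq names, so positions are given for anticodons only. Of the 47 genes, 17 lay on chromosome 13 between 21170036 and 23453514. Outside GENCODE genes lay 38, in introns 8, and in an exon 1, a tRNA-Leu gene with anticodon TAA at chr10:12922571-12922653 in B230208H11Rik. The 3 tRNA-Val genes with anticodon TAC lay at chr19:12011931-12012003, chr19:12012266-12012338 and chrX:160766110-160766182. Genes of tRNA-Leu with anticodon CAA spanned 105 to 107 bases, the other tRNA-Leu genes 82 or 83, and tRNA-Val genes 72 or 73.

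The libraries held 36220722 to 117583663 reads assigned to ncRNAs. tRNAs took 90.8% to 99.9% of them, and almost all of these were tRNA-Gly (median 46.1% of all reads) and tRNA-Glu (median 52.5%). Values are the deposited normalized read counts, that is, reads divided by the DESeq2 size factor of the library. One read was worth between 0.389 and 3.83 normalized counts, and was worth most in PS19 replicate 4. A count of 0 allows up to 3 reads, which is 1.17 to 11.5 normalized counts depending on the library. The PS19 library names share 1 first letter, the WT names have 3, and 2 WT libraries carry that of the PS19 names. PS19 replicate 4 stood apart in tRNA-Val, and WT replicates 2 and 5 had the most tRNA-Leu reads. Values without them are therefore given beside several of the main results.

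tRNA-Leu and tRNA-Val were rare in pEVs. The summed tRNA-Leu entries took a median of 0.000344% of the reads over the 16 libraries, and the tRNA-Val entries a median of 0.000349%. Reads shared by copies count more than once in these sums. Per entry, tRNA-Leu had 12 to 521 reads over all 16 libraries together and tRNA-Val 7 to 1859. Of the 1859 reads, 1372 were in PS19 replicate 4, and in the other libraries together tRNA-Val had 7 to 487 reads and tRNA-Leu 10 to 515. Over the 49 entries the median was 172 reads, and 7 entries had fewer than 100. Reads were found in all 16 libraries for 19 entries, and 37 had a mean normalized count of at least 10, against 22 without PS19 replicate 4.

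**Figure D1:**
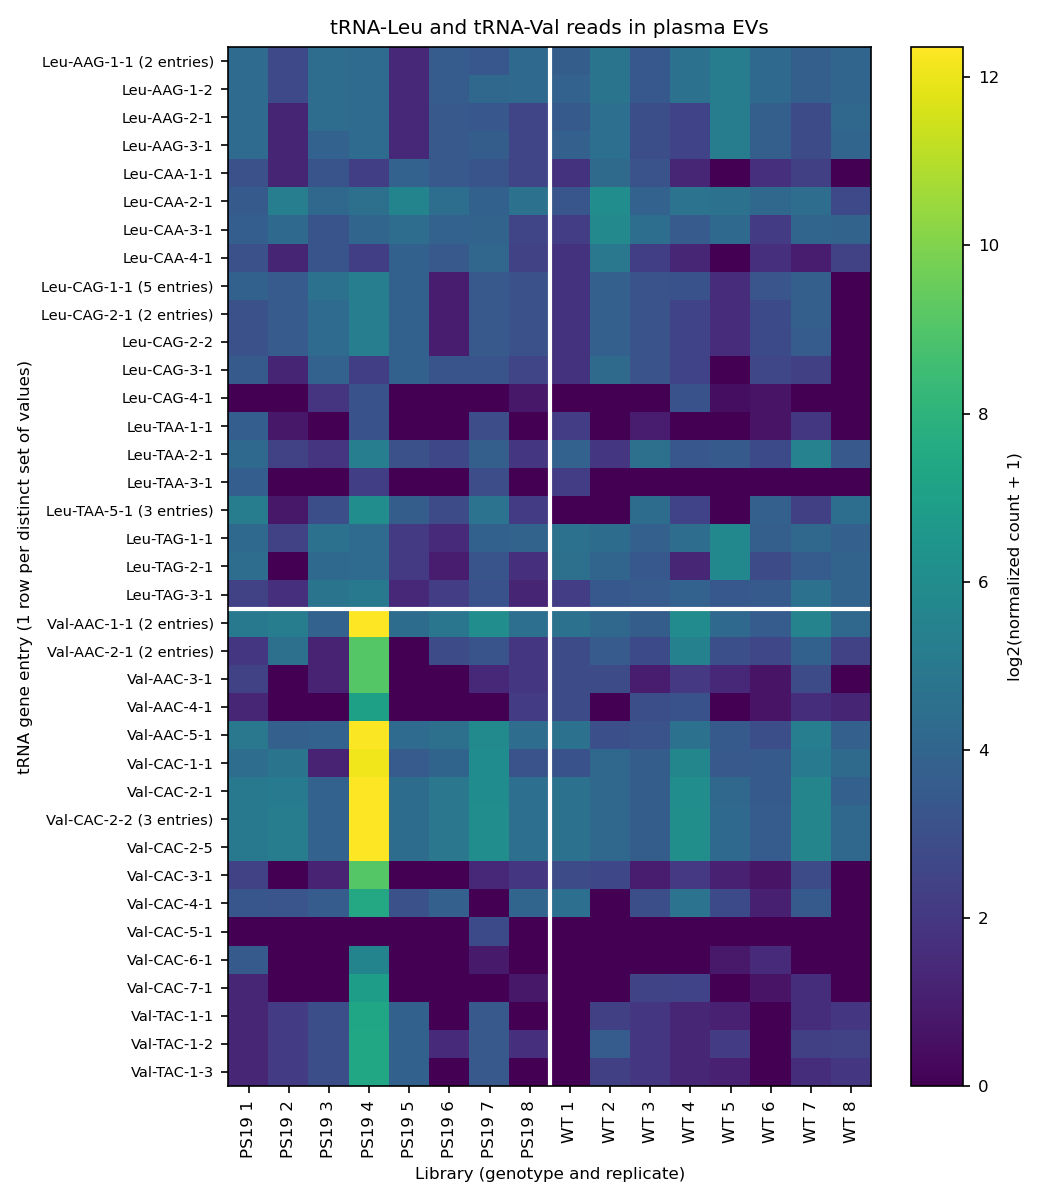
Normalized counts of the tRNA-Leu and tRNA-Val entries as log2(normalized count + 1), with 1 row for each of the 37 distinct sets of values and 1 column for each of the 16 libraries. tRNA-Leu is above the horizontal white line and PS19 left of the vertical one. PS19 replicate 4 is the bright column in the tRNA-Val rows, where its value for tRNA-Val-CAC-2-5 is 5261.5, while its tRNA-Leu values reach at most 65.2.

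The entries were not independent measurements. Of the 49, 37 had distinct values. The 5 entries tRNA-Leu-CAG-1-1 to tRNA-Leu-CAG-1-5 had identical values in every library, as did 3 entries of tRNA-Leu-TAA-5 and 3 of tRNA-Val-CAC-2. Read counts also matched across anticodons. tRNA-Val-AAC-1-1 and tRNA-Val-CAC-2-2 had the same read count in 12 of 16 libraries, and their totals of 1847 and 1857 reads differed by 10. tRNA-Val-AAC-3-1 and tRNA-Val-CAC-3-1 were equal in 14 libraries, of which 10 held reads, with 185 and 182 reads in all. Among tRNA-Leu, tRNA-Leu-CAA-1-1 and tRNA-Leu-CAG-3-1 were equal in 10 libraries, of which 8 held reads, with 123 and 133 reads in all. Across amino acids, tRNA-Leu-TAA-5-1 had the same values as tRNA-Pro-AGG-2-1 in all 16 libraries. These counts therefore do not separate those Val-AAC from Val-CAC entries, that CAA from that CAG entry, or in the last case the 2 amino acids.

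Which tRNA-Leu entry led differed from mouse to mouse. An anticodon TAA entry had the most tRNA-Leu reads in 6 libraries, a CAA entry in 6, a TAG entry in 3 and an AAG entry in 1. In PS19 replicates 1, 4 and 7 and WT replicate 8 the TAA entry was tRNA-Leu-TAA-5-1, whose values equal those of tRNA-Pro-AGG-2-1. Some leads were narrow, with AAG at 31 reads against CAA at 30 in WT replicate 6. In WT replicate 3, TAA had 23 against 22 for CAA. Among tRNA-Val, the highest entry had anticodon CAC in 5 libraries. In the other 11 an AAC and a CAC entry tied for the most reads, so AAC led alone in none. The highest tRNA-Val entry had more reads than the highest tRNA-Leu entry in 5 libraries.

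In the comparison of PS19 with WT, none of the 49 entries was called by limma at a raw p of 0.05, the threshold the study used, against 4.85% of all 15159 ncRNAs. The smallest raw limma p was 0.0649, for tRNA-Val-AAC-5-1, and the smallest Benjamini-Hochberg adjusted limma p over all ncRNAs was 0.829. No exact permutation p of the 49 was under 0.05 either, against 3.96% of all ncRNAs. DESeq2 on the recovered reads also called none, against 5.42%. By edgeR, 20 of the 49 had a raw p under 0.05, against 15.1% of all ncRNAs. Of these, 19 were higher and 1 lower in PS19, against 7.88% higher and 7.26% lower. An adjusted edgeR p under 0.05 was reached by 13, which include copies with identical values. The share of all ncRNAs under that adjusted threshold was not counted. The 19 higher entries were all tRNA-Val, and the lower one was tRNA-Leu-TAG-2-1. Without PS19 replicate 4, edgeR called 2 of the 49, against 15.2% of all ncRNAs. They were tRNA-Leu-TAG-2-1 (lower, -1.43) and tRNA-Val-CAC-5-1 (higher, 3.17), whose 7 reads were all in PS19 replicate 7. Without PS19 replicate 4, limma called 1, tRNA-Leu-TAG-3-1 (lower, -1.16), against 5.31%. For no ncRNA did the 8 PS19 values lie wholly above or below the 8 WT values, so the groups overlapped for every tRNA-Leu and tRNA-Val entry.

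The log2 fold change (limma, PS19 over WT, on the log2(normalized count + 1) scale) had a median of 1.01 over the 49 entries, against -0.01 over all ncRNAs. It was positive for 36 entries and negative for 13, with identical copies counted separately. With 1 ncRNA per identical set the median was 0.77 over 37 entries, against 0.001 over all ncRNAs kept. Over the 49 entries the median was 0.34 without PS19 replicate 4. Within the libraries that share the PS19 letter (8 PS19, 2 WT) it was 0.13, against 0.16 over all ncRNAs. Scaling to library totals moved the median over all ncRNAs to -0.11 and that over the 49 entries to 0.66, and factors from miRNAs only moved them to 0.18 and 1.47. By amino acid the median was 0.86 for tRNA-Leu and 1.25 for tRNA-Val. Without PS19 replicate 4 these were 0.71 and 0.31.

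The number of entries called by limma moved with the settings. With factors from miRNAs only, 15 of the 49 were higher in PS19, against 5.05% of all ncRNAs, and these were 11 tRNA-Leu and 4 tRNA-Val entries. With library totals none was called, against 2.91%, and within the shared letter none, against 4.62%. A pseudocount of 0.1 gave 5 higher, against 2.59%, namely the 3 entries of tRNA-Leu-TAA-5, tRNA-Val-AAC-5-1 and tRNA-Val-TAC-1-2. With 1 ncRNA per identical set tRNA-Val-AAC-5-1 was called alone, with a raw limma p of 0.0404, against 3.51% higher. It was also called alone with the replicate number as a block (raw limma p 0.0298), against 2.61%. Without PS19 replicate 2 there were 5 higher, against 3.32%, and without PS19 replicate 6 there were 10, against 3.29%. No adjusted limma p of the 49 was under 0.05 in any of these fits.

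**Figure D2:**
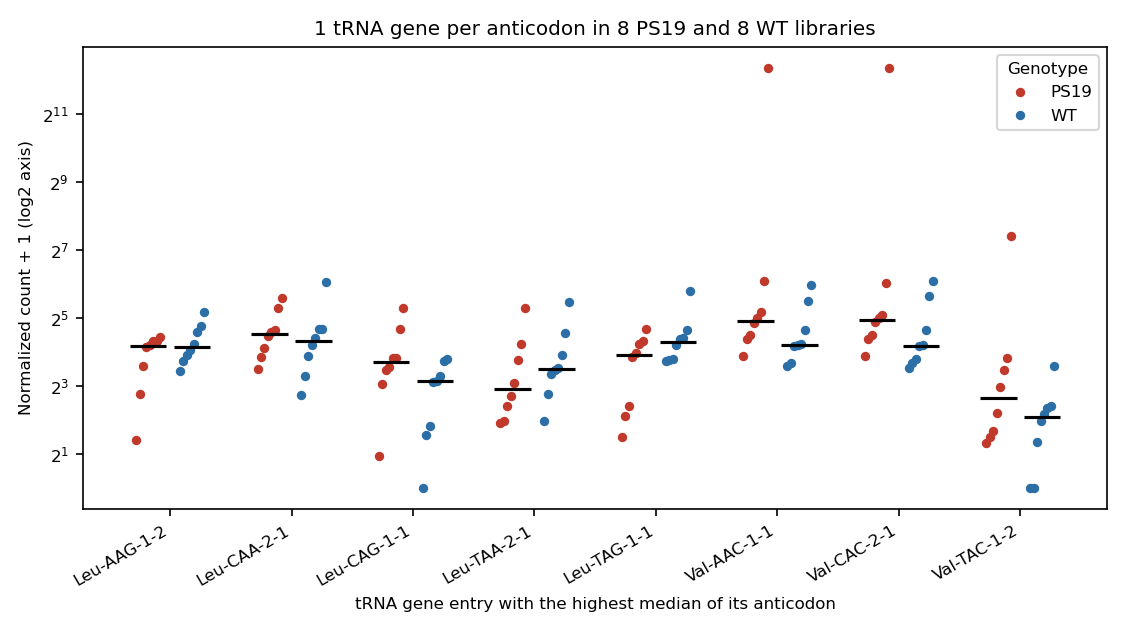
Normalized counts plus 1 on a log2 axis for the entry with the highest median of each anticodon. Each point is 1 library (PS19 red, WT blue, sorted by value within a group) and each bar is the median of 8. PS19 and WT overlap for every entry shown. The isolated PS19 points of tRNA-Val-AAC-1-1 (5249.99), tRNA-Val-CAC-2-1 (5254) and tRNA-Val-TAC-1-2 (169) are PS19 replicate 4.

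tRNA-Leu with anticodon AAG, which reads CUU and, through inosine, CUC codons, had a lower mean log2 value in PS19 for all 5 entries, and none passed the test. For tRNA-Leu-AAG-1-2, the entry with the highest median, PS19 libraries ran from 1.65 to 20.6 normalized counts with a median of 17.1, and WT libraries from 9.76 to 35.4 with a median of 16.8. The medians were close, while the 2 lowest libraries were PS19 and the 3 highest were WT. Its log2 fold change was -0.59 ± 0.51 (SE), with an exact permutation p of 0.203. With 1 library left out at a time it ran from -0.70 to -0.27. It was -0.34 without WT replicates 2 and 5, and -1.03 within the shared letter. Closely related tRNA-Leu-AAG-1-1 had a log2 fold change of -0.65 ± 0.51 (SE) and an exact permutation p of 0.150. With factors from miRNAs only, the median over the 5 AAG entries was -0.01 and 2 of them were positive.

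tRNA-Leu with anticodon CAA, which reads UUG, had the entry with the most tRNA-Leu reads, tRNA-Leu-CAA-2-1, with 521 reads over all libraries. Its values ran from 10.3 to 47.1 in PS19 (median 22.1) and from 5.69 to 65.8 in WT (median 18.8). The highest value was that of WT replicate 2, with 160 reads, and the groups overlapped over nearly their whole range. Its log2 fold change of 0.26 ± 0.50 (SE) had an exact permutation p of 0.556, and with 1 library left out at a time it ran from 0.05 (without WT replicate 8) to 0.52 (without WT replicate 2). It turned to -0.12 by edgeR, to -0.02 when libraries were scaled to their totals and to -0.87 within the shared letter. tRNA-Leu-CAA-1-1 was lower in level and ran from 1.43 to 14.0 in PS19 (median 7.79) and from 0 to 18.5 in WT (median 2.43). The PS19 value was above the WT median in 7 of 8 libraries, with WT replicate 2 above all PS19 libraries. Its log2 fold change was 1.05 ± 0.61 (SE), with an exact permutation p of 0.0995, and it was 0.06 within the shared letter. Without WT replicate 2 it was 1.40 with a raw limma p of 0.0253.

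tRNA-Leu with anticodon CAG, which reads CUG, the leucine codon used most in mammals, had 10 entries with 5 distinct sets of values. All 10 had a higher mean log2 value in PS19 by limma, 9 of them also by DESeq2, by edgeR and with library totals, where tRNA-Leu-CAG-4-1 (12 reads in all) turned, and none passed the limma test. That entry turned too without PS19 replicate 4 (-0.15), and within the shared letter it (-0.84) and tRNA-Leu-CAG-3-1 (-0.41) did. tRNA-Leu-CAG-1-1, with 4 further entries of the same values, ran from 0.919 to 38.3 in PS19 (median 12.0) and from 0 to 12.7 in WT (median 7.76). Of the PS19 libraries, 6 lay above the WT median, PS19 replicate 6 was low and the highest was PS19 replicate 4. That highest value stood for 10 reads, since a read counted most in that library. The log2 fold change was 1.03 ± 0.63 (SE), with an exact permutation p of 0.141, and 0.13 within the shared letter. tRNA-Leu-CAG-2-2 had 1.05 ± 0.62 (SE) and an exact permutation p of 0.118. Without PS19 replicate 6, the 8 entries of CAG-1 and CAG-2, which hold 3 distinct sets of values, had a raw limma p under 0.05, against 3.29% of all ncRNAs that were higher in that fit, with values of 1.41 for tRNA-Leu-CAG-1-1 (raw limma p 0.0267) and 1.40 for tRNA-Leu-CAG-2-2. Without WT replicate 8 these entries had 0.66 and 0.70, and without PS19 replicate 4 both had 0.78.

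tRNA-Leu with anticodon TAA, which reads UUA, held entries with opposite signs. tRNA-Leu-TAA-5-1 ran from 0.715 to 65.2 in PS19 (median 9.21) and from 0 to 21.3 in WT (median 4.34). Every PS19 library had at least 1 read and 3 WT libraries had none, and 6 PS19 libraries lay above the WT median. The log2 fold change was 1.38 ± 0.79 (SE), with an exact permutation p of 0.159, and it rests on values shared with tRNA-Pro-AGG-2-1. It was 1.03 without PS19 replicate 4, the highest library, 0.65 without WT replicates 2 and 5, and 0.30 without all 3. It was larger in other settings, with 2.32 within the shared letter (raw limma p 0.0563) and 2.48 with a pseudocount of 0.1 (raw limma p 0.0291). It was also called without PS19 replicate 2 (1.78), without WT replicate 3 (1.69) and without WT replicate 8 (1.71). By contrast tRNA-Leu-TAA-2-1 ran from 2.74 to 38.3 in PS19 (median 6.47) and from 2.88 to 43.6 in WT (median 10.2). Both groups spanned nearly the same range, and 3 PS19 libraries lay above the WT median. Its log2 fold change of -0.46 ± 0.58 (SE) had an exact permutation p of 0.424, and with 1 library left out at a time it ran from -0.76 (without PS19 replicate 4) to -0.19 (without WT replicate 7). It was 0.10 with factors from miRNAs only and 0.51 within the shared letter. tRNA-Leu-TAA-1-1 and tRNA-Leu-TAA-3-1 had 27 and 20 reads over all libraries.

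tRNA-Leu with anticodon TAG, which reads CUA, had a lower mean log2 value in PS19 for its 3 entries. tRNA-Leu-TAG-1-1 ran from 1.84 to 24.7 in PS19 (median 14.0) and from 12.2 to 54.0 in WT (median 18.5). The 3 lowest libraries were PS19 and the highest was WT replicate 5, with 139 reads, and 2 PS19 libraries lay above the WT median. The log2 fold change was -0.95 ± 0.53 (SE), with an exact permutation p of 0.0825. With 1 library left out at a time it ran from -1.14 (without PS19 replicate 3, raw limma p 0.0455) to -0.68 (without PS19 replicate 6). It was -1.09 without PS19 replicate 4, -0.75 without WT replicate 5 and -0.70 without WT replicates 2 and 5. tRNA-Leu-TAG-2-1, which edgeR called at a raw p of 0.0380 (adjusted edgeR p = 0.269), had a limma log2 fold change of -1.08 ± 0.68 (SE) and an exact permutation p of 0.171. It passed the limma test without WT replicate 4 (raw limma p 0.0454). The fold change was -0.68 without WT replicates 2 and 5, and -0.08 within the shared letter. In WT replicate 5 this entry had the same 139 reads. The direction of the 3 TAG entries was the same with library totals, with factors from miRNAs only (median -0.36) and within the shared letter (median -0.91).

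**Figure D3:**
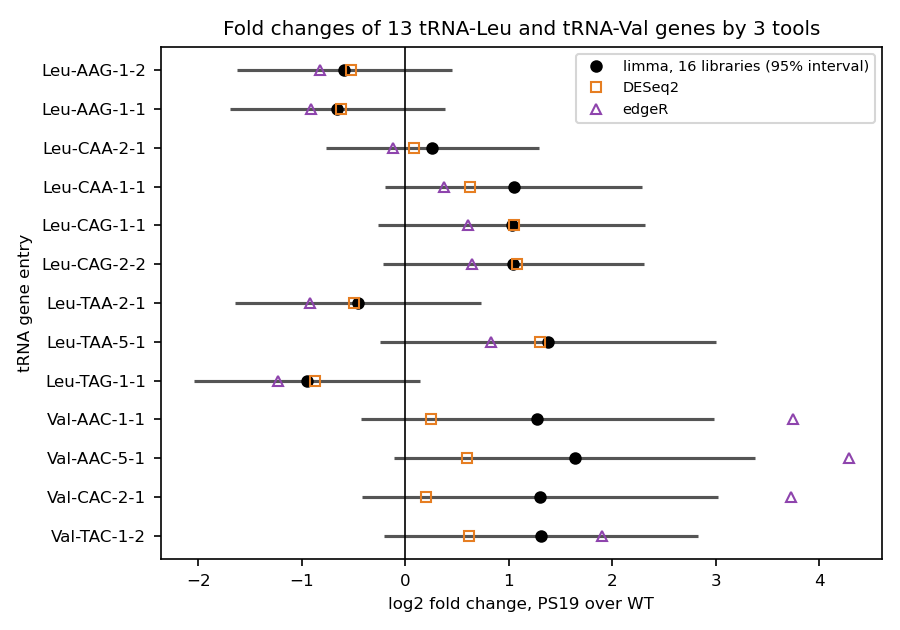
Log2 fold change of PS19 over WT for the 13 named tRNA-Leu and tRNA-Val entries, by limma (circles, with 95% intervals), DESeq2 (squares) and edgeR (triangles). Every limma interval includes 0. For the tRNA-Val entries the edgeR values (1.91 to 4.29) lie right of the limma and DESeq2 values.

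tRNA-Val with anticodon CAC reads GUG, and with anticodon AAC it reads GUU and, through inosine, GUC. These anticodons held the entries with the most reads over all libraries together. Without PS19 replicate 4 no tRNA-Val entry had more than 487 reads, against up to 515 for tRNA-Leu. tRNA-Val-CAC-2-1 ran from 13.7 to 64.3 in 7 PS19 libraries (median 28.5), reached 5254 in PS19 replicate 4 and ran from 10.4 to 66.4 in WT (median 17.2). Apart from that library, PS19 lay within the range of WT, and 6 of the 7 were above the WT median. The log2 fold change was 1.30 ± 0.84 (SE), with an exact permutation p of 0.204. It was 0.36 without PS19 replicate 4, 0.63 within the shared letter, 0.20 by DESeq2 and 3.73 by edgeR. tRNA-Val-AAC-1-1 had read counts nearly equal to those of CAC-2 entries. It ran from 13.7 to 66.8 in 7 PS19 libraries (median 27.6), with 5249.99 in PS19 replicate 4, and from 11.0 to 61.8 in WT (median 17.6). Its log2 fold change was 1.28 ± 0.83 (SE) with an exact permutation p of 0.206. It was 0.34 without PS19 replicate 4 and 0.70 within the shared letter.

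tRNA-Val-AAC-5-1 was the entry with the smallest p. It ran from 12.9 to 56.8 in 7 PS19 libraries (median 20.4), with 4939 in PS19 replicate 4, and from 6.95 to 37.5 in WT (median 11.6). All 8 PS19 libraries lay above the WT median, while 3 WT libraries reached into the PS19 range. The log2 fold change was 1.64 ± 0.85 (SE, 95% interval -0.11 to 3.38), with an exact permutation p of 0.0642. Without PS19 replicate 4 it was 0.67, with a raw limma p of 0.176, and within the shared letter 1.71, with a raw limma p of 0.242.

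tRNA-Val with anticodon TAC, which reads GUA, had a higher mean log2 value in PS19 for its 3 entries, of 100 to 135 reads. tRNA-Val-TAC-1-2 ran from 1.47 to 13.2 in 7 PS19 libraries (median 3.58), with 169 in PS19 replicate 4, and from 0 to 11.1 in WT (median 3.21). Without PS19 replicate 4 the groups lay over each other and the medians nearly met. Its log2 fold change was 1.32 ± 0.74 (SE), with an exact permutation p of 0.129. It was 0.69 without PS19 replicate 4 and 0.57 within the shared letter.

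Signs differed among the other tRNA-Val entries with anticodon AAC. tRNA-Val-AAC-2-1 had a log2 fold change of -0.19 ± 0.86 (SE) and tRNA-Val-AAC-4-1 of -0.24 ± 0.84 (SE), although both were highest in PS19 replicate 4, with 541 and 130 normalized counts. tRNA-Val-AAC-3-1 had 0.32 ± 0.93 (SE). All 3 were lower in mean without PS19 replicate 4, at -1.04, -1.06 and -0.69, and none of these passed the limma test. DESeq2, which replaced the count of that library in each, gave -0.88, -2.03 and -1.22. By edgeR with that library these entries were higher in PS19. tRNA-Val-AAC-2-1 then had 1.70, with an adjusted edgeR p of 0.173, and tRNA-Val-AAC-3-1 had 3.34, with an adjusted edgeR p of 0.00316. By edgeR without it they had -0.83, -1.87 and -1.22. The sign also turned without PS19 replicate 4 for tRNA-Val-CAC-1-1 (0.77 to -0.25), tRNA-Val-CAC-3-1 (0.37 to -0.64) and tRNA-Val-CAC-7-1 (0.21 to -0.61). tRNA-Val-CAC-5-1 had 7 reads, all in PS19 replicate 7, and its values equalled those of 3 circRNAs.

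The level of tRNA-Val in PS19 replicate 4 was the widest departure seen among these entries. tRNA-Val-CAC-2-5 had 1372 reads there, or 16.8 RPM (reads per 1000000 assigned reads, 95% exact binomial interval 15.9 to 17.7, counting error only). The next share was 1.16 RPM in WT replicate 2 (interval 0.836 to 1.57), so the share in PS19 replicate 4 was 14.5-fold higher. tRNA-Val-AAC-5-1 had 1288 reads there against at most 68 in any other library, and tRNA-Val-CAC-1-1 had 1138 against at most 75. The other CAC-2 entries and both AAC-1 entries had 1369 or 1370 reads there, a 14.5-fold higher share than in the next library. Other copies had fewer reads there. tRNA-Val-AAC-2-1 and tRNA-Val-CAC-3-1 had 141 reads each there, tRNA-Val-CAC-4-1 had 45 and tRNA-Val-TAC-1-2 had 44. For tRNA-Val-TAC-1-2 this was 0.540 RPM, below the 0.745 RPM of WT replicate 2. On the normalized scale the gap was wider, at 5261.5 against 67.9 for tRNA-Val-CAC-2-5, because this library had the lowest size factor, 0.261.

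By share of reads, PS19 replicate 4 was the highest of the 16 libraries for 19 of 21 tRNA-Val entries, none of 28 tRNA-Leu entries, 7.29% of the other tRNA entries and 1.06% of all ncRNAs. Of all 15159 ncRNAs, 10 had at least 30 reads in this library and a share at least 10 times the next one. They were 9 tRNA-Val entries and tRNA-Gly-ACC-1-1, which had 1097 reads there and at most 68 elsewhere. This threshold was chosen after the values had been seen. By amino acid, the summed tRNA-Val share was 0.0157% there against at most 0.00133% elsewhere. The tRNA-Lys share (0.0159%) and the tRNA-Asp share (0.00695%) were also highest in this library, 3.27-fold and 2.90-fold above the next, and so was the tRNA-Thr share, 1.40-fold above.

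The make-up of the tRNA-Val reads was read from single copies. Relative to the reads of tRNA-Val-CAC-2-2 in the same library, tRNA-Val-AAC-5-1 stood at 94.0% in PS19 replicate 4 and at 34.1% to 100% in the other libraries (median 77.1%). tRNA-Val-CAC-4-1 stood at 3.28% there and at 0% to 89.5% elsewhere (median 32.6%). tRNA-Val-AAC-2-1 stood at 10.3% there and at a median of 26.3% elsewhere. The library with the fewest reads of tRNA-Val-CAC-2-2 had 10.

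**Figure D4:**
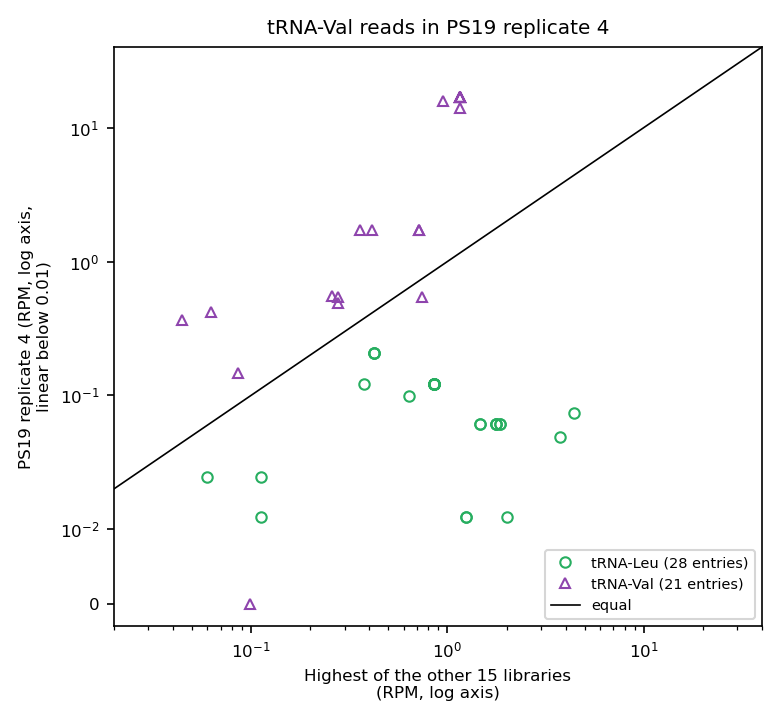
RPM of each tRNA-Leu (circles) and tRNA-Val (triangles) entry in PS19 replicate 4 against the highest of the other 15 libraries, both axes logarithmic (the vertical axis is linear below 0.01). Above the line lie 19 of 21 tRNA-Val entries, up to 16.8 against 1.16 RPM, and no tRNA-Leu entry.

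Markers of the cells that could feed the plasma pool were read beside this library. All 6 miRNAs of the red blood cell list were detected, and their summed level was 3532 normalized counts in PS19 replicate 4, the lowest of the 16 libraries, against up to 88346 in PS19 and 34078 to 186707 in WT. All 3 neuronal miRNAs were detected, with 10017 normalized counts in PS19 replicate 4, the highest of the PS19 libraries, against 2206 to 10415 in WT. The 3 liver miRNAs summed to 8502 to 211904 in PS19 and 26564 to 386443 in WT. The 4 platelet and white blood cell miRNAs summed to 97.0 to 398 and 144 to 399, and the 2 endothelial miRNAs to 516 to 2262 and 1444 to 3373. No listed marker was at 0 in all libraries. By share of reads, the neuronal list in PS19 replicate 4 (0.00320%) lay within the range of the other libraries (0.000918% to 0.0231%), and so did the liver list. The red blood cell, platelet and white blood cell, and endothelial lists were below all other libraries. The part of these markers in the tRNA-Val level was not tested.

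The calls for tRNA-Val differed with the treatment of this library. DESeq2 replaced the count of PS19 replicate 4 as an outlier in 19 of 21 tRNA-Val entries and in no tRNA-Leu entry. Without that replacement DESeq2 called 16 entries, all tRNA-Val and all higher in PS19, against 5.16% of all ncRNAs that were higher. tRNA-Val-AAC-5-1 then had a log2 fold change of 5.30, where it had 0.60 with replacement. By edgeR it had 4.29, with an adjusted edgeR p of 1.54e-05.

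In tRNA-Leu, the highest library depended on the scale. In normalized counts PS19 replicate 4 was the highest library for 12 of 28 tRNA-Leu entries, WT replicate 5 for 7 and WT replicate 2 for 5. In the same order, they were the highest for 178, 2 and 16 of the other 384 tRNA entries. Of all 15159 ncRNAs they were the highest for 1020, 1280 and 961. Their sums over distinct tRNA-Leu entries were 433, 318 and 371, from 113, 818 and 901 reads. By share of reads WT replicate 2 was the highest library for 19 of 28 tRNA-Leu entries, but also for 29.0% of all ncRNAs, and it had the fewest reads and a miRNA share of 7.51%, the highest of all. tRNA-Leu-CAA-2-1 reached 4.42 RPM there (95% exact binomial interval 3.76 to 5.16). tRNA-Leu-TAG-1-1 reached 1.85 RPM in WT replicate 5 (interval 1.55 to 2.18) against 1.33 in WT replicate 2. With both WT libraries left out, limma called 1 of the 49 entries, tRNA-Val-TAC-1-2 (higher, 1.70), against 2.97% higher. With PS19 replicate 4 left out as well it called 2, tRNA-Leu-CAA-4-1 (higher, 1.28) and tRNA-Val-AAC-4-1 (lower, -1.58), against 6.39% of all ncRNAs.

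Among the other 384 tRNA entries, limma called 31 higher in PS19 and none lower, against 2.72% and 2.13% of all ncRNAs. They were 12 of 17 tRNA-Ile, 8 of 9 initiator tRNA-Met, 5 of 39 tRNA-Ala, 2 of 59 tRNA-Cys, 2 of 19 tRNA-Gln, and 1 each of tRNA-Arg and tRNA-Lys. The count moved with the setting in both directions. It was 5 higher with library totals (against 2.91% of all ncRNAs called in either direction), 47 higher by DESeq2 (5.42%) and 62 higher with factors from miRNAs only (5.05% higher). Within the shared letter it was 61 higher and 2 lower of 381 (4.62%), of which 37 were tRNA-Cys and 10 tRNA-His. By edgeR it was 63 higher and 1 lower (15.1%), and without PS19 replicate 4 and WT replicates 2 and 5 it was 16 higher and 6 lower of 382 (6.39%). No tRNA-Ile or initiator tRNA-Met entry was called with library totals or within the shared letter, and no initiator tRNA-Met entry without PS19 replicate 4. tRNA-Ser, the class II tRNA beside tRNA-Leu, had none of 23 called and a median log2 fold change of 0.16. The median over the other tRNAs was 0.47, against 0.86 for tRNA-Leu and 1.25 for tRNA-Val. Without PS19 replicate 4 these medians were 0.16, 0.71 and 0.31, and with WT replicates 2 and 5 left out as well they were -0.28, 0.30 and 0.21. The difference between the amino acids was not tested.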

How the data were processed

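Small RNA libraries of pEVs from 8 PS19 and 8 WT mice were analysed. Per the labels, reads were aligned to mm10 with STAR 2.5.3a, and the study's methods name COMPSRA for the assignment to ncRNAs. The authors deposited signal values, which are counts divided by the DESeq2 (1.42.1) size factor of each library, and a mean signal made after DESeq2 replaced outlying counts. The log2 fold changes and their standard errors, the Wald statistic (a score), and the raw and adjusted p-value that the authors deposited were not used.

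Whole reads were recovered from the value of 1 read per library, with 100% of values whole within 1e-06. log2(normalized count + 1) of all 15159 ncRNAs was fitted with limma 3.58.1 (trend, two-sided), and calls are raw p under 0.05. Adjustment was by Benjamini-Hochberg over all ncRNAs. Exact permutation tests were two-sided over 12870 splits. DESeq2 1.42.0 and edgeR 4.0.16 (quasi-likelihood, TMM) were run on the recovered reads. The fits were tested on simulated data. R 4.3.3 and Python 3.11.15 were used.

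Entries given in full were, per anticodon and with 1 per identical set, the one with the highest median, the one with the smallest limma p and any with a raw limma or DESeq2 p under 0.05. Others are named for matching read counts, or for the library or setting that singles them out. The members and lists were chosen with earlier results of these data known. Further alternatives were library totals, factors from miRNAs only, a mean of at least 10, a pseudocount of 0.1, 1 ncRNA per identical set, a replicate block, libraries left out, and libraries of the shared letter. Depth limits low entries, and intervals cover counting error only. The sex of each mouse was not used here.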

Additional observations from a re-analysis of the deposited data

Results flagged for a closer look

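Within the groups of 8 libraries, the gap of the highest or lowest library to its neighbour, divided by the whole range on the log2(normalized count + 1) scale, was set against Dixon's critical value of 0.526 for the 13 named entries. Of 26 groups examined, 5 passed it, and chance passes about 1 in 20. PS19 replicate 4 stood above the other PS19 libraries for tRNA-Val-AAC-5-1 (0.757), tRNA-Val-CAC-2-1 (0.746), tRNA-Val-AAC-1-1 (0.74) and tRNA-Val-TAC-1-2 (0.586). The CAC-2-1 and AAC-1-1 entries had nearly the same read counts, so these are not taken as separate observations. WT replicate 5 stood above the other WT libraries for tRNA-Leu-TAG-1-1 (0.549).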

How the results depend on the processing

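The number of entries called was 0 by limma and also 0 by DESeq2, with library totals, with a mean of at least 10 (15 of those 37 entries reached it only through PS19 replicate 4) and within the shared letter. It was 20 by edgeR, 15 with factors from miRNAs only (all higher, 11 of them tRNA-Leu) and 5 with a pseudocount of 0.1. With 1 ncRNA per identical set it was 1. Same-numbered libraries come from different mice and did not deviate together (correlations from -0.114 to 0.194), so the numbers do not pair them, and with the replicate block 1 entry was called, tRNA-Val-AAC-5-1 (raw limma p 0.0298). Leaving out 1 library at a time gave 0 to 10 calls. There were 10 without PS19 replicate 6, 5 without PS19 replicate 2 and none in 3 of the 16 fits, and no adjusted limma p was under 0.05. Alternatives added after the data had been seen gave 2 calls for edgeR without PS19 replicate 4, 16 for DESeq2 without outlier replacement, 1 without WT replicates 2 and 5 and 2 without these and PS19 replicate 4. Of the 13 named entries, tRNA-Leu-CAA-2-1 turned sign by edgeR (-0.12), with library totals (-0.024) and within the shared letter (-0.87), and tRNA-Leu-TAA-2-1 with factors from miRNAs only (0.10) and within the shared letter (0.51). None turned sign when 1 library was left out, and tRNA-Val-AAC-1-1 then ran from 0.34 to 1.55. Apart from what the named libraries show, the cause of these shifts was not tested. The tRNA-Leu entries had 12 to 521 reads over 16 libraries, and the smallest difference detectable at that depth was not determined.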
